A study of Homo sapiens with 12 samples.

Results

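The DEAD box and DEAH box RNA helicases were taken as the protein-coding genes whose symbol is DDX or DHX followed by a number, on any chromosome except Y. The GRCh38.p14 gene table held 53 such genes, 37 DDX and 16 DHX, among 19974 protein-coding genes of the nuclear chromosomes except Y. They were described by the ac4C peaks listed within their gene spans and on their strand. ac4C, or N4-acetylcytidine, is an acetylated cytidine that the acetyltransferase NAT10 places on RNA. Acetylated RNA immunoprecipitation sequencing (acRIP-seq) pulls down RNA fragments with an antibody against ac4C, and stretches with more reads than their surroundings are listed as peaks.

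The RNA came from SW620, a human colorectal cancer cell line, and all libraries were of 1 cell line. There were 3 immunoprecipitated libraries of cells carrying a control short hairpin RNA (shControl, labelled wild type) and 3 of cells carrying a hairpin against NAT10 (shNAT10, labelled NAT10 knockdown). The methods describe stable lines made with lentiviral hairpins, and the labels do not say which hairpin was used here or whether the 3 libraries of a group came from separate cultures, so the p-values cover the spread between these libraries only. The question was which peaks depend on NAT10, here within 1 gene family. The input libraries were not used here.

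DEAD box proteins use ATP to pry apart short stretches of paired RNA and to remodel RNA bound by proteins. DEAH box proteins are a related branch that tends to move along a strand while it unwinds. Both branches serve the steps that an RNA passes through, including splicing, ribosome assembly, export, translation and decay, and several members act in the nucleolus, where NAT10 is also found. Comparing DDX with DHX genes therefore sets enzymes of similar chemistry, but often of different jobs, beside each other.

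The libraries held 17877 to 28752 peaks, and the largest list was that of knockdown 1. Between 0.349% and 0.444% of a library's peaks lay in the helicase genes. No read counts are given, depth is therefore unknown, and the score of a peak was used only as a rank within its library. A percentile of 50 marks the middle of a library's scores, and 7.61% to 13.7% of the peaks of a library shared a score of 3100. NAT10 itself had 1, 0 and 2 peaks in the control and 2, 0 and 1 in the knockdown libraries, and since a peak is no measure of expression, these lists cannot show the knockdown. Of 10 markers of intestinal epithelium, 7 had a peak, with 11 to 18 summed peaks per library, and EPCAM, CDH1, KRT8, CDX2 and VIL1 had one in all 6, while KRT18, KRT20 and CDX1 had none. Of the same list CEACAM5 had 2, 1 and 3 control peaks and none in the knockdown libraries. Of 8 markers of blood, vessels and stroma, only VWF and COL1A1 had any, with 0 to 5 summed peaks per library. A peak that is gained or lost and a change in the amount of the RNA it lies on cannot be told apart in these lists.

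The first bases of the transcripts are shown first, because many helicase genes with few peaks had them at the start. For 48 of the 53 genes the RefSeq promoter table (GRCh38.p14) gave 63 transcription starts. The first 50 transcribed bases lay wholly within a peak in all 6 libraries at 11 starts in 11 genes, in 1 to 5 libraries at 9 starts, and in no library at 43. The share covered in all 6 libraries was 17.5%, against 9.82% of 22156 starts of all genes. The letters CNNCNNCNNCNN, a C and any 2 bases repeated 4 times, have been linked to NAT10 and were searched on the transcribed strand only, in the first 50 bases. The sequences below are 30 bases of the transcribed strand from within those first 50, with the first match in capitals. In the first set every start was covered by a peak in all 6 libraries and held a match.
DDX1, chr2:15591868-15591897, plus strand: aCTGCCACGCCGTgtcagtcgggagggagg
DDX23, chr12:48852114-48852143, minus strand: ggaaagatggCGACGGCTCCGCgacgttga
DDX27, chr20:49219427-49219456, plus strand: cggaagtggCTTCTGCGACAAcatgcttgc
DDX42, chr17:63774170-63774199, plus strand: gttCCCCTCCCCCCTtcagcaacgggccgt
DDX46, chr5:134758797-134758826, plus strand: ctgggatggCCGCCACAGCTGtaggtgctg

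The second set gives a DHX and a DDX start for contrast, both covered in all 6 libraries and both without a match in their first 50 bases.
DHX36, chr3:154324458-154324487, minus strand: acagtggcttccgggcccggacgccatttc
DDX50, chr10:68901315-68901344, plus strand: cctttcacgctgtcgctgcccgtaggtggt

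The third set shows starts with a match in genes for which no library listed a peak.
DDX3X, chrX:41333321-41333350, plus strand: acctgcgcgCGCCGCCGGCTCccctccatt
DDX39B, chr6:31541974-31542003, minus strand: agatttccCTCCTTCGTCGCtgttgctgcc
DDX6, chr11:118791713-118791742, minus strand: acgcgcgccCGGCGTCTCCGGgtcgctagt

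A match was present at 5 of the 11 starts covered in all 6 libraries (45.5%) and at 12 of the 43 covered in none (27.9%). Over all genes the shares were 38.4% of 2175 starts and 28.0% of 16932 starts, and 29.8% of all 22156 windows held the letters. The cytidine content of the helicase windows was 29.5% ± 3.70 (SD, n = 11 starts) where covered in all libraries and 28.5% ± 8.52 (SD, n = 43 starts) where covered in none. The match is a description of the letters, and with 11 starts its share is imprecise. The 43 starts came from 32 genes and some of their windows overlap, so they are not independent. DHX15, a helicase that takes spliceosomes apart, missed the first set by its edge, since its region in all 6 libraries, chr4:24584323-24584550 on the minus strand, ended 4 bases short of the annotated start at 24584554. It therefore counts among the starts covered in none, with its match. DHX34 counts there too, since its region in all 6 libraries, chr19:47349281-47349352, held only part of the first 50 bases. Covered in none thus does not mean that no peak touched the start.

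At least 1 library listed a peak for 41 of the 53 helicase genes (77.4%), against 61.5% of all protein-coding genes. In all 6 libraries a peak was listed for 25 helicase genes (47.2%), against 29.9% of all genes. The genes held 81, 79 and 85 peaks in the control and 107, 76 and 78 in the knockdown libraries. Knockdown 1 was the highest, and the other knockdown libraries were lower than every control library.

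**Figure D1:**
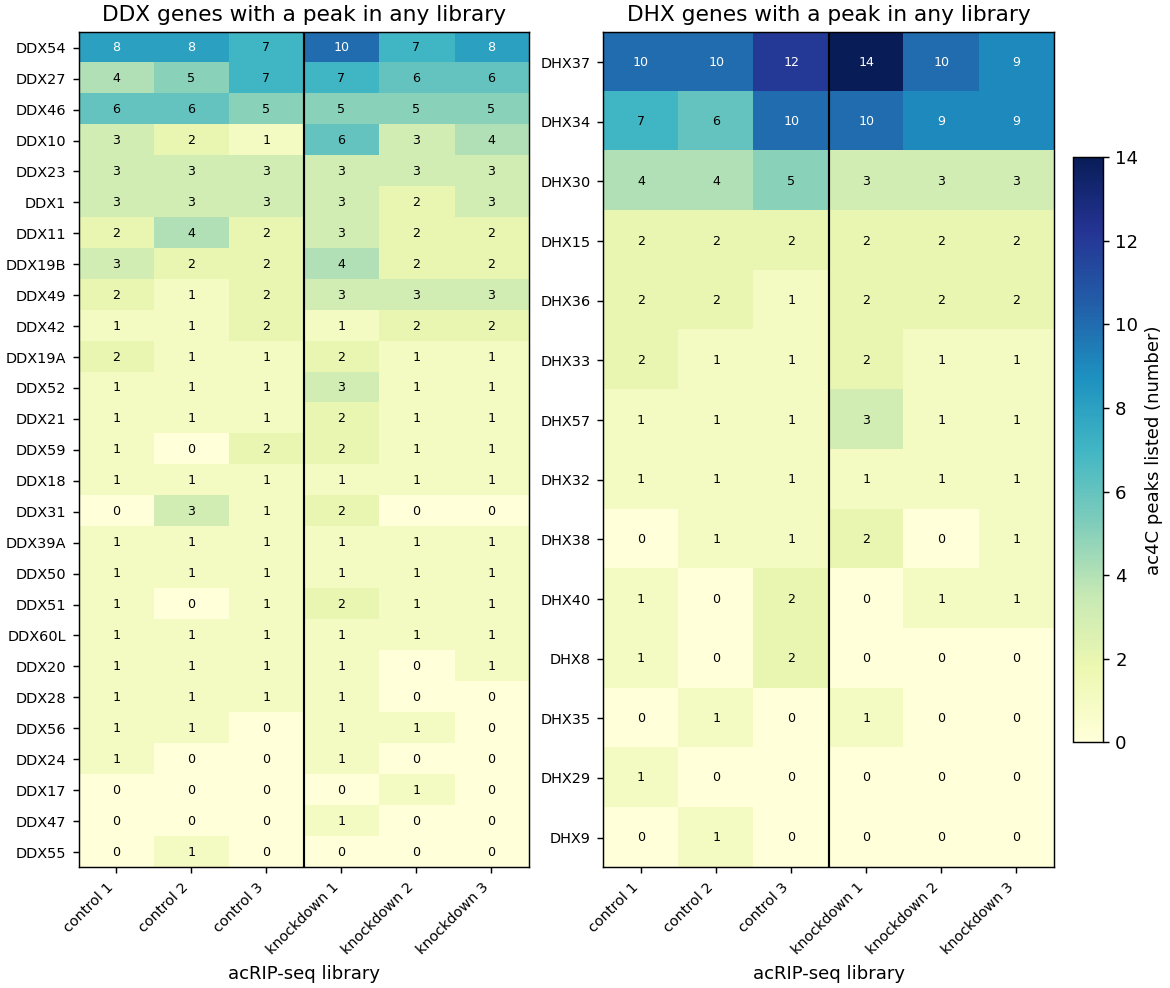
Heat maps of the number of listed ac4C peaks in each library (columns, 3 control and 3 NAT10-knockdown) for the 27 DDX and 14 DHX genes with a peak in any library (one per line, ordered by mean). DHX37 and DHX34 stand above the other DHX genes in all 6 libraries, and the colour scale runs from 0 to 14 peaks.

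Helicases of ribosome assembly were the largest role, and each of the 16 genes was listed with a peak at least once. For 10 of them every library had one, and their summed peaks were 36 in each control library and 56, 36 and 36 in the knockdown libraries. The groups overlapped, with a two-sided exact permutation p of 1. Only knockdown 1 departed from 36.

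DHX37, a helicase of small ribosomal subunit assembly at chr12:124946826-124989131, had more peaks than any other member. It held 10, 10 and 12 peaks in the control and 14, 10 and 9 in the knockdown libraries, which overlapped. Its mean of 10.8 ± 1.83 peaks (SD, n = 6 libraries) placed it at the 99.5th percentile of all protein-coding genes. The peaks formed 15 separate regions along 42.3 kb, of which 7 were present in all 6 libraries.

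DDX54, a nucleolar helicase at chr12:113157173-113185478, had 8, 8 and 7 control peaks and 10, 7 and 8 knockdown peaks. Again 7 regions were present in all 6 libraries. The last of these, chr12:113157174-113159112, was the widest at 1939 bases and lay in a stretch that the span of CFAP73 also covers. The strand of CFAP73 was not given in the tables used here, so those 7 peaks, 1 or 2 in each library, could belong to either gene.

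DDX27, which acts in pre-rRNA processing, held 4, 5 and 7 control and 7, 6 and 6 knockdown peaks. Of its regions 4 were present in all libraries, and 2 more, at 9.39 and 10.9 kb from the gene start, were listed in 1 control and all 3 knockdown libraries. The scores of those 2 regions were mostly low, between the 14.4th and the 60.2nd percentile, whereas the 4 shared regions lay between the 86.2nd and the 96.0th. DDX10, a helicase of small subunit assembly, held 3, 2 and 1 control and 6, 3 and 4 knockdown peaks. Its groups met at 3 peaks. Only the region at its start was shared by all 6 libraries, and the others were scattered over a span of 276 kb.

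DDX49, a nucleolar helicase at chr19:18919715-18928630, was the only helicase gene with more peaks in every knockdown library than in any control library. It had 2, 1 and 2 control peaks and 3 peaks in each knockdown library, a knockdown minus control difference of 1.33. The two-sided exact permutation p was 0.1, the smallest that 3 against 3 libraries can give. Counts that do not overlap always give this p, so it adds nothing to the criterion. Genes of all kinds met the same criterion in 1.57% of 12293 cases, and here it was 1 of 41. The region at the start, chr19:18919675-18919856, was listed in control 1 and all knockdown libraries, and the region at the end, chr19:18928128-18928633, in control 3 and all knockdown libraries. The middle region, chr19:18926303-18926377, was present in all 6. Each outer region was therefore also found in 1 control library, at the 86.4th and the 6.81st percentile, against 92.7 to 94.0 and 63.8 to 75.4 in the knockdown libraries. The gene's difference was 2.33 with the 50% of peaks that had the highest scores and 2 with equal numbers of peaks per library. Each exact permutation p was 0.1, but these are subsets of the same peaks and give no separate evidence.

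Among the other ribosome assembly genes, DDX18, DDX21, DDX50, DDX52 and DHX33 had peaks in all 6 libraries. DDX18 and DDX50 had exactly 1 peak in every library. Peaks in fewer libraries were found for DDX24, listed in control 1 and knockdown 1, and for DDX31, with 0, 3 and 1 control and 2, 0 and 0 knockdown peaks. DDX51 had 1, 0 and 1 control and 2, 1 and 1 knockdown peaks. DDX56 lacked a peak in control 3 and knockdown 3, where a peak overlapped its span with its midpoint outside. DDX47 was listed in knockdown 1 only and DDX55 in control 2 only.

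Of 14 splicing helicases, 10 had a peak in any library and 5 in all 6, and the summed peaks were 15, 16 and 17 in the control and 16, 14 and 15 in the knockdown libraries (two-sided exact permutation p = 0.5). DDX46, which acts when the U2 particle joins the pre-mRNA, held 6, 6 and 5 control peaks and 5 in each knockdown library. The same 5 regions were present in all libraries, all with midpoints within the first 15.0 kb of a 72.3 kb span. The sixth peak lay elsewhere in each case, at 60.2 kb in control 1 and at 37.3 kb in control 2. The groups met at 5, with an exact permutation p of 0.4.

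DDX23, a helicase of the tri-snRNP, had 3 peaks in every library and the same 3 regions throughout. Scores of its regions lay between the 81.2nd and the 94.8th percentile. DHX15 had 2 peaks in every library, and DDX39A, a helicase that packages mRNA for export, had 1. DDX42, which accompanies the U2 particle, had 1, 1 and 2 control and 1, 2 and 2 knockdown peaks. None of these 4 genes separated the groups.

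The remaining splicing helicases were listed in some libraries only. DHX8, which releases mRNA from the spliceosome, had 1, 0 and 2 control peaks and none in the knockdown libraries, with scores between the 16.1st and the 36.2nd percentile. Control 2 also lacked a peak, so the groups overlapped at 0, and a further 6 peaks on the other strand, 1 per library, lay where the span of ETV4 overlaps. DHX38, a helicase of the second splicing step, had 0, 1 and 1 control and 2, 0 and 1 knockdown peaks by midpoint, although a further peak overlapped its start in all 6 libraries with a midpoint before the gene. DDX20, a partner of the SMN protein, had 1 peak by midpoint in each library but knockdown 2. Its region at the start was counted in the 3 control libraries. That region was also listed in knockdown 2 and knockdown 3, with midpoints before the gene. The counted peaks of knockdown 1 and knockdown 3 lay elsewhere, at the 1.96th and the 18.2nd percentile. DHX35 was listed in control 2 and knockdown 1, and DDX17 in knockdown 2 only.

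Export, translation and decay helicases were covered in 6 of 8 genes, and 5 of these in all libraries. Summed peaks were 16, 12 and 15 in the control and 21, 15 and 15 in the knockdown libraries (two-sided exact permutation p = 0.6). DHX34, a factor of nonsense-mediated decay at chr19:47349315-47382704, held most of them. It had 7, 6 and 10 control and 10, 9 and 9 knockdown peaks, a range that overlapped because control 3 reached 10. Its regions at 10.7 and 13.3 kb from the start were listed in control 3 and all 3 knockdown libraries. Scores were low to middling, with a median at the 45.6th percentile, apart from the region at the start, chr19:47349281-47349352, which held the shared top score or above in all 6 libraries.

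DHX36, which unwinds G-quadruplexes, had 2, 2 and 1 control peaks and 2 in each knockdown library, and its region at the start was also at the top score throughout. DDX19B and DDX19A, a near-identical pair that acts in mRNA export at the nuclear pore, had 3, 2, 2 and 2, 1, 1 control peaks and 4, 2, 2 and 2, 1, 1 knockdown peaks. Both had a region of exactly 49 bases in all 6 libraries. Reads from stretches that the pair share could have been placed in either gene, so these values are uncertain. DHX57 had 1 peak in each library except 3 in knockdown 1, and DHX29, an initiation helicase, was listed in control 1 only.

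**Figure D2:**
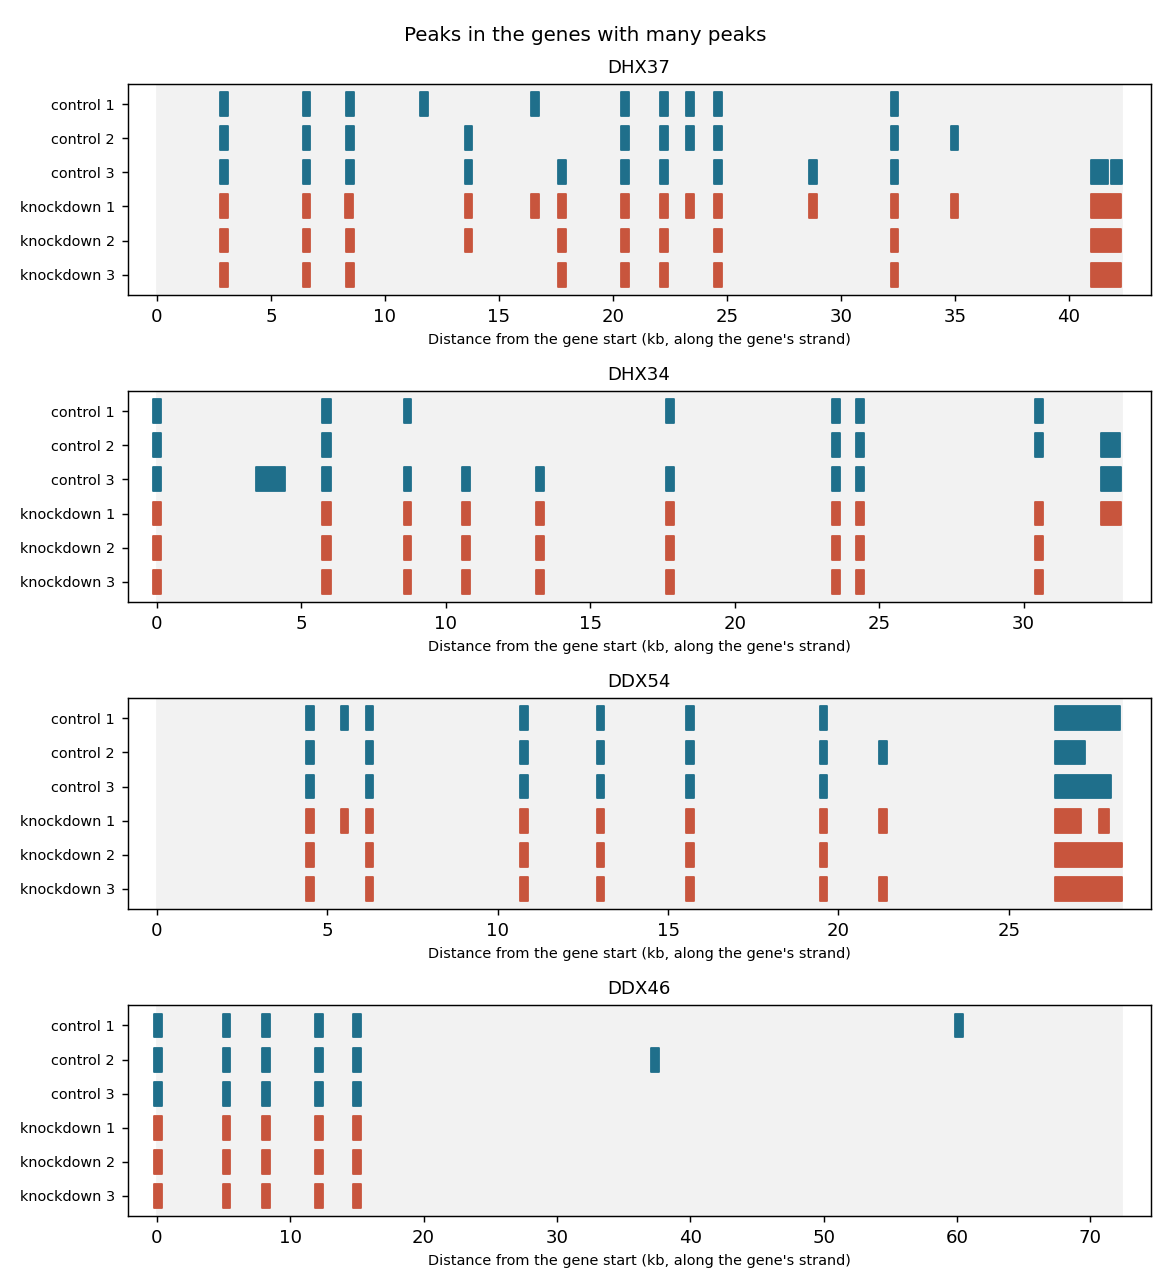
Maps of the listed peaks in DHX37, DHX34, DDX54 and DDX46, with distance from the gene start in kb on the horizontal axis and a line for each library (blue control, red knockdown; narrow peaks are widened to stay visible). DHX37 and DDX54 each show 7 regions shared by all 6 libraries, and the 5 shared regions of DDX46 have their midpoints in the first 15.0 kb of the gene.

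Mitochondrial RNA helicases gave the lowest p for a role. The 2 genes, DHX30 and DDX28, summed to 5, 5 and 6 peaks in the control and 4, 3 and 3 in the knockdown libraries. These ranges did not overlap, and the exact permutation p of 0.1 was the smallest possible, before any allowance for the 8 roles compared. DHX30, a helicase of mitochondrial ribosome assembly at chr3:47803138-47850193, was the only member with more peaks in every control library than in any knockdown library. It had 4, 4 and 5 control peaks and 3 in each knockdown library, a knockdown minus control difference of -1.33. The two-sided exact permutation p of 0.1 follows from the criterion itself. Of all 12293 genes with a peak, 0.651% met this criterion.

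Within DHX30, 1 region separated the groups by itself. That region, chr3:47825028-47825247, 220 bases long and 22.0 kb from the gene start, was listed in all 3 control libraries at the 82.7th, 94.8th and 93.2nd percentile and in no knockdown library. It was the only region of a helicase gene with peaks in 3 of 3 control and 0 of 3 knockdown libraries, out of 134. The same criterion took 0.34% of the 41755 regions of the whole peak lists, and the opposite one, met by 0 of 134 helicase regions, took 0.819%. The regions on both sides of it did not separate the groups: chr3:47810657-47810711 and chr3:47827347-47827477 were listed in all 6 libraries. A further region at 40.0 kb was listed in control 1 and control 3 only, at low scores of the 21.6th and 33.9th percentile. The counts of the gene rest on both regions, since without the one at 40.0 kb control 1 would have 3 peaks, as many as the knockdown libraries.

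**Figure D3:**
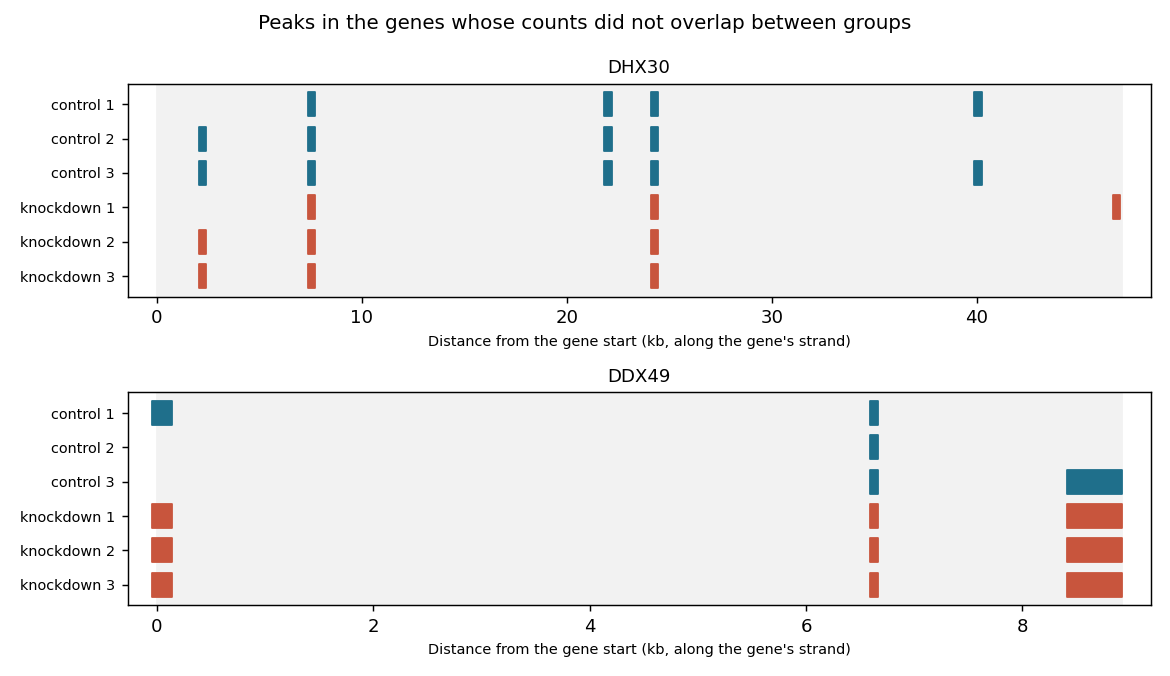
Maps of the listed peaks in DHX30 and DDX49, drawn by distance from the gene start in kb, with a line for each library (blue control, red knockdown; narrow peaks are widened to stay visible). The DHX30 peak at 22.0 kb is drawn in the 3 control libraries only, and DDX49 shows its first and last regions in 1 control and all 3 knockdown libraries.

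DDX28, which also acts on the mitochondrial ribosome, had 1 peak in each control library and 1, 0 and 0 in the knockdown libraries. Knockdown 1 kept the groups from separating, and the exact permutation p was 0.4. Its merged region was 2166 bases wide and reached past the start of a gene of 2.32 kb. No helicase gene had peaks in all control and no knockdown libraries, a pattern seen in 0.334% of all genes with a peak, and none had the opposite pattern, seen in 0.366%. With a looser criterion, a lead of at least 2 libraries, DDX28 and DHX8 were ahead in control cells, 2 of 41 against 4.18% of all genes with a peak, and 0 of 41 in knockdown cells against 3.52%. Of the 134 helicase regions 4 were ahead in control cells, against 4.07% of all regions, and 10 in knockdown cells, against 5.92%.

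DDX1, a helicase of the tRNA ligase complex, had 3 peaks in every library except 2 in knockdown 2. A further peak over its start, shown above, had its midpoint before the annotated gene and was not counted. DDX11, a DNA helicase of sister chromatid cohesion, had 2, 4 and 2 control and 3, 2 and 2 knockdown peaks, and it has near-identical copies in the genome, so its values are uncertain. DHX9, which resolves many RNA structures in the nucleus, was listed in control 2 only. Of the less described genes, DHX32 had 1 peak in every library, DDX59 had 1, 0 and 2 control and 2, 1 and 1 knockdown peaks, and DHX40 had 1, 0 and 2 control and 0, 1 and 1 knockdown peaks.

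No peak was listed in any library for 12 genes. They included DDX3X, DDX6, DDX5, DDX39B, DDX41 and DHX16, which serve translation, decay and splicing. All 4 genes of the germ line list, DDX4, DDX25, DDX43 and DDX53, were among them. In the antiviral list DDX60 and the interferon-induced sensor DHX58 had none, while DDX60L had 1 peak in every library. DDX5 had a peak across its start in control 2 and knockdown 1 with a midpoint outside the gene. Whether the other RNAs were scarce or bore no ac4C cannot be told apart here.

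In the number of peaks the knockdown and control groups did not separate over the family as a whole. Control libraries had a mean of 81.7 ± 3.06 helicase peaks (SD, n = 3) and knockdown libraries one of 87 ± 17.3 (SD, n = 3), with an exact permutation p of 1. Without knockdown 1 the difference turned to -4.67 peaks (exact permutation p = 0.2, n = 3 and 2). As a share of a library's peaks the genes held 0.406% ± 0.0499 (SD, n = 3) and 0.402% ± 0.0272 (SD, n = 3), also with an exact permutation p of 1. Of the 53 genes 17 had a higher and 12 a lower mean in knockdown cells, which became 8 and 20 without knockdown 1. Among all 12293 genes with a peak the counts were 5484 higher and 3916 lower, and 3510 and 6156 without that library.

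The median score percentile of helicase peaks was 68.5, 69.9 and 69.0 in the control and 65.1, 62.6 and 68.2 in the knockdown libraries. Every knockdown value was below every control value. The means were 69.1 ± 0.740 (SD, n = 3) and 65.3 ± 2.82 (SD, n = 3), with a two-sided exact permutation p of 0.1, the smallest possible. Within each family the means were in the opposite order and the groups did not separate. The control and knockdown means were 77.1 and 78.6 for DDX peaks and 51.8 and 52.5 for DHX peaks. The exact permutation p was 0.6 for DDX and 1 for DHX peaks. The lower pooled value is thus no fall within either family.

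DHX genes had a higher mean number of peaks per gene than DDX genes, an order that rested on the genes with most peaks. The means over 37 DDX genes were 1.32, 1.32 and 1.27 in the control and 1.81, 1.24 and 1.30 in the knockdown libraries. Over 16 DHX genes they were 2, 1.88 and 2.38 in the control and 2.5, 1.88 and 1.88 in the knockdown libraries. DDX was lower in 6 of 6 libraries, with a DDX minus DHX difference of -0.705 ± 0.203 peaks per gene (SD, n = 6; 1.38 against 2.08) and a two-sided exact sign-flip permutation p of 0.0312, the smallest that 6 libraries allow. That test covers the libraries and not the choice of genes. DHX37 and DHX34 held 58% of all DHX peaks, and DDX54 and DDX27 held 27.1% of all DDX peaks. Without these 4 genes the means were 1.06 and 1, a difference of 0.0619 with DDX higher in 4 and lower in 2 libraries. The medians over genes differed by -0.0833, and the mean over all protein-coding genes was 1.04 peaks per gene.

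Per kb of gene span the order was the opposite, but the call did not hold under all settings. DDX genes had 0.0597 and DHX genes 0.0514 peaks per kb, a difference of 0.00832 ± 0.00681 (SD, n = 6) in the same direction in 6 of 6 libraries (exact sign-flip permutation p = 0.0312), against 0.0514 over all genes. The exact sign-flip permutation p was 0.0625 with the 50% of peaks that had the highest scores, 0.188 with peaks on either strand and 0.0625 without peaks shared between overlapping genes. Over members with a peak the difference was 0.0231, and without DDX54, DDX27, DHX37 and DHX34 it was 0.0260. The median span was 26.5 kb for DDX and 47.8 kb for DHX genes, introns included, and across the 53 genes span and mean number of peaks had a Spearman rho of 0.270. A peak was listed for 59.9% of DDX and 64.6% of DHX genes in an average library. This difference of -4.67 percentage points had an exact sign-flip permutation p of 0.125 and ranged from -9.29 to 5.07 over the libraries.

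**Figure D4:**
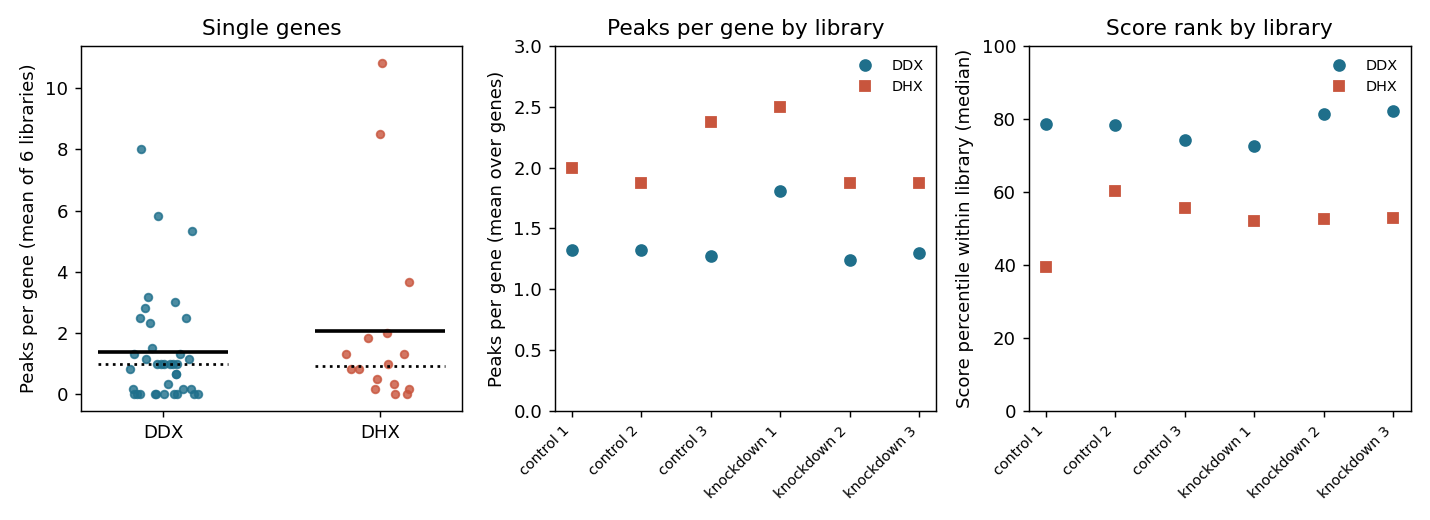
Left, mean number of peaks over the 6 libraries for each DDX and DHX gene (points; solid line the mean, dotted line the median). Centre and right, by library, the mean number of peaks per gene and the median score percentile of the peaks (circles DDX, squares DHX), showing DDX below DHX in peaks per gene and above DHX in score in all 6 libraries.

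Pooled over the genes of a family, DDX peaks also ranked higher in score than DHX peaks. The sign-flip test of this covers the libraries and not the choice of genes. The median percentile of DDX peaks was 78.7, 78.4 and 74.2 in the control and 72.5, 81.3 and 82.2 in the knockdown libraries. For DHX peaks it was 39.6, 60.2 and 55.7 in the control and 51.9, 52.6 and 52.9 in the knockdown libraries. The lowest DDX value was above the highest DHX value. The mean difference was 25.7 ± 8.20 percentile points (SD, n = 6; exact sign-flip permutation p = 0.0312), which was 15.1 when each gene counted once. Without DDX54, DDX27, DHX37 and DHX34 it was 8.80, with DDX higher in 5 of 6 libraries. The peaks of all genes had a mean median of 49.5, so DHX peaks were near the middle and DDX peaks above it. DDX54, DDX27, DDX46 and DDX23 had gene medians at or above the 92.7th percentile, as did DDX51 and, among DHX genes, DHX36. Medians of DHX34 and DHX37 were at the 45.6th and 54.1st.

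Neither family differed between the groups in peaks per gene beyond the spread between libraries. Control libraries gave 1.31 ± 0.0312 peaks per DDX gene (SD, n = 3) and knockdown libraries 1.45 ± 0.313 (SD, n = 3; exact permutation p = 0.9). For DHX genes the values were 2.08 ± 0.260 and 2.08 ± 0.361 (SD, n = 3 each; exact permutation p = 1). The share of DHX genes with a peak was 68.8% in every control library, 11 of 16 genes. In the knockdown libraries it was 56.3% to 62.5%, or 10, 9 and 10 genes. These ranges did not meet, but they lie few genes apart. The exact permutation p of 0.1 was the smallest possible, with no allowance for the other tests made. Over all 53 helicase genes the mean shares were 62.9% and 59.7% (exact permutation p = 0.4), and over all protein-coding genes 44.2% and 44.3%.

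Many helicase peaks lay early in the gene. As a description, the median relative position, 0 at the start and 1 at the end of the gene span, was 0.208 ± 0.0276 (SD, n = 6) for helicase peaks and 0.443 ± 0.0292 (SD, n = 6) for all genes. Of 10 equal stretches of the span, the first held 34.2% of DDX and 26.3% of DHX peaks, against 27.9% over all genes. The second stretch held 16.7% of DDX and 19.9% of DHX peaks, against 6.26% over all genes. The last stretch held 9.79% and 8.80%, against 13.2% to 15.7% over all genes in a library. DDX peaks had a lower median position than DHX peaks, 0.185 against 0.252, in 6 of 6 libraries (exact sign-flip permutation p = 0.0312). This order also rested on few genes, since the difference of -0.0671 turned to 0.0309 without DDX54, DDX27, DHX37 and DHX34 and to 0.0579 with 1 value per gene. Since spans include introns, and no exon annotation was used here, a low relative position need not mean a low position in the mRNA.

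In the first 500 bases of the gene, 10 of 37 DDX genes and 5 of 16 DHX genes had a peak midpoint in all 6 libraries. DDX1 and DHX38 are not among them, since their peaks over the start had midpoints before the gene. No share over all genes stands beside these counts. For DDX these were DDX10, DDX18, DDX21, DDX23, DDX27, DDX39A, DDX42, DDX46, DDX50 and DDX60L. For DHX they were DHX15, DHX32, DHX33, DHX34 and DHX36.

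The same stretches recurred from library to library. Merged over the libraries, the helicase peaks formed 134 regions, of which 54 (40.3%) were present in all 6. The share was 22.0% of the 41755 regions of the whole peak lists, which include peaks outside protein-coding genes. Of those 54, 47 had identical first and last bases in every library (87.0%), against 68.9% of the 9195 shared regions of the whole lists. The share present in all 6 was 42.7% of 82 DDX regions and 36.5% of 52 DHX regions. Of 36 helicase regions listed in 1 library, 18 were of knockdown 1 (50%), and that library held 44.3% of such regions over the whole lists.

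The shared regions that held at least the score of 3100 in every library were in 8 genes. They lay at the start of DDX27 (chr20:49219295-49219541), DDX46 (chr5:134758771-134758955), DHX15, DHX34 and DHX36 (chr3:154324174-154324497). Within the spans of DDX11 and DDX19B they were chr12:31083813-31084061 and chr16:70299053-70299354, and in DDX54 it was the wide last region. The DDX19B region holds an annotated transcription start inside the span, chr16:70299186, whose first 50 bases were covered in all 6 libraries. DDX27 and DDX46 had a second such region each, chr20:49223268-49223433 and chr5:134763904-134764092. Scores at this level have no order among themselves.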

How the data were processed

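Peak lists of 6 ac4C immunoprecipitation libraries were used, 3 control and 3 NAT10-knockdown. The authors called peaks separately in each library under names of the kind MACS gives and deposited those in mRNA, with a strand and a score of at least 50. What the score measures, the aligner and the caller's version are not given in the sources used here. The submitters' processing notes name GRCh38. The members, lists and tests were chosen with earlier results of these data known.

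A peak was given to a gene when its midpoint lay in the span (RefSeq, GRCh38.p14) on the gene's strand. The strand came from the promoter table for 48 members, and for DDX18, DDX49, DDX52 and DHX33 from the strand holding most peaks, a rule that gave the table's strand for 96.7% of 10030 genes. DHX58 had no strand and no peak. Peaks overlapping by at least 1 base on a strand were merged into regions. Groups were compared by two-sided exact permutation tests, and DDX with DHX by exact sign-flip tests over the 6 libraries (64 patterns). Score percentiles are ranks within a library, with ties sharing their mean rank. No protein table was given, so lengths are gene spans in kb.

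Genes named were those with peaks in 1 group only, with counts that did not overlap between groups, with the most peaks in each family and role, with peaks in 1 to 5 libraries or none, and those holding the highest-scored shared regions. Other genes were named to complete a list. The correlations of same-numbered deviations were low, at 0.0295, 0.00234 and 0.0318, although 4 of the 6 libraries matched best with their own number. Whether replicate numbers pair the libraries is therefore unclear, and the main tests did not pair them. Alternatives were other score limits, assignment rules, strands, overlaps and each library left out. The code was tested on simulated data of 3000 genes with 200 planted changes. Python 3.11.15, numpy 2.4.6, pandas 2.3.3, scipy 1.17.1 and matplotlib 3.10.9 were used.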

Additional observations from a re-analysis of the deposited data

How the results depend on the processing

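Depth is unknown in these lists, and a region missing from a library was missing at the authors' threshold only. With the 50% of peaks that had the highest scores, DDX minus DHX was -0.120 peaks per gene (exact sign-flip permutation p = 0.312), 0.0125 per kb (p = 0.0625) and -0.0596 in relative position (p = 0.312). Regions in 1 group only then numbered 2, 1 in control only and 1 in knockdown only. With 17877 highest-scored peaks in each library the knockdown difference in helicase peaks turned to -2 (exact permutation p = 0.5). At that setting regions in 1 group only numbered 3, 1 in control only and 2 in knockdown only. Counting either strand gave 0.00511 per kb (exact sign-flip permutation p = 0.188) and -10.9 percentage points of genes with a peak (exact sign-flip permutation p = 0.0312), and peaks in the span of 1 gene only gave 0.00721 per kb (exact sign-flip permutation p = 0.0625). A difference of at least 2 libraries took 2 genes (DDX28 and DHX8, both higher in control), against 4.18% of all genes with a peak. It also took 14 regions, 4 of 134 higher in control and 10 in knockdown, against 4.07% and 5.92% of all regions. Cover of at least 50% of the region took 2 regions, both in control only. For this cover and the 2 score limits, the shares over all regions were not computed. Added after seeing the data, the median over genes gave -0.0833, leaving out the 2 genes with most peaks in each family gave 0.0619 per gene, 0.0260 per kb, 8.80 in score and 0.0309 in position, leaving out DHX34 and DHX37 alone, which can only lower the DHX count, gave 0.378, 0.0375, 16.7 and 0.0768, and 1 value per gene gave 15.1 and 0.0579. The cause was not tested.

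With each library left out in turn, the ranges were -4.67 to 10.8 peaks and -0.0316 to 0.0158 percentage points of peaks for the knockdown difference, 0 to 1 genes and 1 to 8 regions in 1 group only, and -0.0197 to 0.257 for the knockdown difference of DDX minus DHX. Leaving out a library loosens the 1-group criterion, since fewer libraries have to meet it. The 8 regions arose without control 3, 1 in control only and 7 in knockdown only. Shares over all genes and regions were not computed for these settings. DDX minus DHX ranged from -0.736 to -0.625 per gene, 0.00653 to 0.00986 per kb, -6.62 to -3.75 points of genes with a peak, 23.0 to 27.2 in score and -0.0733 to -0.0544 in position. The difference of DDX49 ranged from 1 to 1.5 and DHX30 from -1.5 to -1. With 5 libraries no sign-flip test can fall under the threshold. A replicate block left the knockdown differences at 5.33 peaks, -0.00340 percentage points and 0.144, with exact permutation p = 1 each, and 3 pairs cannot go below 0.25. It changed no call.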

Other observations

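Of 22 related helicases under other symbols, 15 were listed with a peak at least once (68.2%) and 9 in every library (40.9%), with 23 to 40 summed peaks per library. UPF1, the central helicase of nonsense-mediated decay, held 5, 8 and 5 control and 8, 5 and 6 knockdown peaks. HELZ had 5, 4 and 3 control and 7, 3 and 3 knockdown peaks, and the spliceosomal helicase SNRNP200 had 3 peaks in every library except 4 in knockdown 1. The translation initiation helicases EIF4A1 and EIF4A2 had no peak in any library, whereas EIF4A3, a part of the exon junction complex, had 2 in 4 libraries and 1 in knockdown 2 and knockdown 3. TDRD9, TDRD12, DQX1, ASCC3 and RIGI had none either.

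Of the 53 DDX and DHX genes 11 overlapped the span of another protein-coding gene, but only 7 of 506 peaks, all in DDX54, lay in such an overlap. On the other strand, 6 peaks each lay in the spans of DDX27, DHX38 and DHX8, 1 per library.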
